A study of Mus musculus with 47 samples.

Results

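The proteasome subunit genes were examined as 1 module in allele-resolved single-cell RNA-seq of mouse iPSCs. Members were the rows of the count table whose symbol begins with Psm, a letter from a to g and a number, without pseudogenes and without Psmc3ip, and this gave 46 of 13947 genes. The 47 cells came from 1 plate and had been reprogrammed with lentiviral OSKM from embryonic fibroblasts of a cross between a Mus mother, carrying an X-linked eGFP transgene, and a Cast father. They were sorted by FACS after culture in serum medium with LIF, to which ascorbic acid was added per the labels, while the study's methods describe passages of its iPSC controls after colony picking without doxycycline and ascorbic acid. For the cells of its XX and XO comparison, these methods describe sorting into a GpC methylase mix that labels open chromatin, with an incubation before RNA capture. Reads over SNPs between the strains had been split by allele, and the column names of the table sort the cells into 23 X-Mus X-Cast cells with both X chromosomes, 15 X-Cast O-Mus cells with only the Cast X and 9 X-Mus O-Cast cells with only the Mus X. The study grouped its iPSCs by the mean allelic ratio of X-linked genes, so that the classes rest on X-linked allelic reads. Where 3 values stand in a row for the classes, they follow this order, and 2 values stand for X-Cast O-Mus first. The strain cross, reprogramming and medium named by the labels are shared by the 3 classes. The classes were not spread evenly over the wells of the plate, and plate rows A, F and H held no X-Mus O-Cast cell. No separate clones or cultures are named. The cells were therefore not treated as replicates, no p-value was computed, and values are given as ranges over cells.

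The proteasome degrades proteins that carry ubiquitin chains. Its barrel-shaped core particle is built of alpha and beta rings, and the beta subunits Psmb5, Psmb6 and Psmb7 carry the proteolytic sites. The regulatory particle binds the ends of the core, with a ring of ATPases (Psmc genes) that unfolds substrates and with non-ATPase subunits (most Psmd genes) that bind and deubiquitinate them. Dedicated chaperones assist assembly. In immune cells or after interferon, Psmb8, Psmb9 and Psmb10 replace the constitutive catalytic subunits, and the ring-shaped activator made of Psme1 and Psme2 can bind the core in place of the regulatory particle. Pluripotent stem cells are known for high proteasome activity.

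Cells had 71682 to 216451 allelic counts in total, of which the members held 1248 to 5099. Of the 13 listed pluripotency markers, 12 were in the table and all 12 had reads, with a summed level per 10000 counts of 34.2 to 78, 32.6 to 118 and 23.9 to 64.7 in the 3 classes (medians 56.3, 48.3 and 41.2). Pou5f1, Sox2 and Klf4 among them are also reprogramming factors. Of the 12 fibroblast markers, 10 were in the table, 5 of these, including Col1a2, Postn and Dcn, had 0 counts, and the summed level reached 3.71, 9.14 and 4.05 at most (medians 1.38, 2.57 and 1.07). Of the fibroblast markers that were read, Vim had 1443 counts in 34 cells, Zeb1 125 in 16 and Thy1 91 in 10. Mitochondrial genes took 9.09 to 26.7% of the counts of a cell, with medians of 22.9%, 22.9% and 18.4% in the 3 classes.

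Before the values, the 250 bases upstream of the annotated start are shown for Psme1, Psme2 and Psmb10, the 3 members that were higher by 1.5 times in both single-X classes, and for Psmb6, a catalytic core subunit with similar levels in the 3 classes. They are RefSeq sequences of build GRCm38.p6 written 5′ to 3′ on the strand of the gene, with the GC box GGGCGG and the antioxidant response element core TGACNNNGC in capitals on either strand. Psme2 has 2 annotated starts, and the more upstream was used. The stretch before Psme1 lies inside the longer GENCODE model of this gene.
Psme1, chr14:55578244-55578493, plus strand: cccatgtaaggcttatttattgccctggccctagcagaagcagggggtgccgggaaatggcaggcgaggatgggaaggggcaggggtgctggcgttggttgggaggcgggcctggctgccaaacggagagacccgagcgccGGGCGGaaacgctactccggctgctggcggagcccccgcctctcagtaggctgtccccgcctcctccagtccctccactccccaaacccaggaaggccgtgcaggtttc
Psme2, chr14:55591102-55591351, minus strand: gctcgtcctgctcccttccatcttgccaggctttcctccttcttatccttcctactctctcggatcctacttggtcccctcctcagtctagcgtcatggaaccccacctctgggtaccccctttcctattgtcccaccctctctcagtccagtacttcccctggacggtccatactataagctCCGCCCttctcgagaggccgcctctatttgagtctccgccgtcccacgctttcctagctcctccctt
Psmb10, chr8:105938393-105938642, minus strand: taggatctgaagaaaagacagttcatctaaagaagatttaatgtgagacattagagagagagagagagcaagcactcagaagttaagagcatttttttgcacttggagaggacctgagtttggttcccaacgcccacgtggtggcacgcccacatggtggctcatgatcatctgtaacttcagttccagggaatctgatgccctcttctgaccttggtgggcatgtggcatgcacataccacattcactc
Psmb6, chr11:70525107-70525356, plus strand: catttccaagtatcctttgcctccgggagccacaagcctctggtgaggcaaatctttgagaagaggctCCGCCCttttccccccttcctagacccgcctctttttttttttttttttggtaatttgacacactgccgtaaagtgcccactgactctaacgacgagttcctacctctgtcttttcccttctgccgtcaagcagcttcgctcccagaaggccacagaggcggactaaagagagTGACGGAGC
The promoter table held 38 of the 46 members. TGACNNNGC, the core of the element bound by NFE2-related factors, which are known regulators of proteasome genes, was found in these windows of 5 of the 38 (Psmb5, Psmb6, Psmc6, Psmd12 and Psmd9) and in 11.5% of all 27025 genes. GGGCGG was found in 21 of 38 members and in 35.4% of all genes, and CCAAT in 14 of 38 and in 37.5%. Of the interferon-type motifs, a pair of GAAA with 2 free bases between and TTCNNNGAA were found in 3 members (Psmb3, Psmd4 and Psmd9) and 1 member (Psmg1), against 3.46% and 8.13% of all genes, and in none of the windows of Psme1, Psme2 and Psmb10. All motifs were searched on both strands, overlaps between motifs were allowed, and a match is a description of letters only.

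Reads were found for 44 of the 46 members, and 26 members had reads in all 47 cells. Together they made up a median of 169 per 10000 counts (range over cells 146 to 259). Counts come only from reads over SNPs, so that the level of a gene also depends on how many SNPs it has, and the order of levels between genes is given only per kilobase of exon and with that limit. Numbers of counts say where reads were found. The beta ring held 38.2% of the member counts, the alpha ring 18.3%, the non-ATPases 17%, the chaperones 11.8%, the ATPases 11.7% and the activators with the inhibitor 2.46%. The inducible and tissue-restricted core subunits held 0.575%.

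Per kilobase of exon, the mean level per 10000 counts was highest for the catalytic subunits Psmb6 (9.40) and Psmb5 (8.21) and for the assembly chaperone Psmg4 (7.49), followed by the beta subunit Psmb4 (6.90). The beta subunit Psmb1 had the most counts, 15053, at 11.2 to 35.1 per 10000 over cells (median 19.2). Psmb6 followed with 13501 counts at 10.9 to 27.7 (median 16.7), and Psmb4 with 10374 counts at 7.95 to 21.2 (median 13.1). These 3 beta subunits were read from both alleles in all 47 cells.

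Of the alpha subunits, Psma1 had a mean level of 3.29 per kilobase, Psma5 of 2.02, Psma7 of 1.81, Psma2 of 1.78, Psma3 of 1.57 and Psma4 of 0.474. Over cells, their levels per 10000 were 2.88 to 15.6 for Psma1, 0.479 to 5.51 for Psma5, 2.85 to 9.66 for Psma7, 4.01 to 10.8 for Psma2, 0.513 to 11.9 for Psma3 and 0.509 to 2.06 for Psma4. Psma6 had 6 counts, all of the Mus allele and all in 1 cell, although every alpha subunit is a part of each core. The same holds in the regulatory particle, where Psmd4, a ubiquitin receptor, had 33 counts in 8 cells and the ATPase Psmc2 136 counts in 32 cells. Obligatory subunits of the same particles thus had very different counts. The number of SNPs per gene is not part of the table used here, and levels were not read as subunit amounts.

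Among the other beta subunits, the mean level per kilobase was 1.71 for Psmb2, 1.23 for the trypsin-like catalytic subunit Psmb7 and 1.05 for Psmb3. The ATPases other than Psmc2 had levels per kilobase of 3.21 (Psmc5), 2.41 (Psmc4), 2.17 (Psmc1), 1.38 (Psmc3) and 0.730 (Psmc6). Of the non-ATPases, Psmd7 was highest per kilobase with 4.57, followed by Psmd12 (1.21), Psmd3 (1.05), Psmd6 (0.904), Psmd13 (0.689), the deubiquitinase Psmd14 (0.573), Psmd1 (0.368), Psmd8 (0.323) and Psmd2 (0.0781). The chaperones Psmg2, Psmg1, Psmg3, Psmd10 and Psmd5 had 4.6, 2.28, 0.896, 0.648 and 0.249 per kilobase, and Psmd9 had 0 counts. Psme3, Psmf1 and Psme4, which code for a nuclear activator, a proteasome inhibitor and a large activator, had 0.132, 0.0947 and 0.0462.

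Inducible and tissue-restricted core subunits were sparse. Psmb9, the inducible form of the caspase-like subunit, had 98 counts in 7 cells, 3 of the X-Mus X-Cast, 3 of the X-Cast O-Mus and 1 of the X-Mus O-Cast class. No cell had Psmb9 reads of both alleles. Psmb9 overlaps Tap1 on the opposite strand, and the stranding of the counts is not given in the sources used here. Psmb10, the inducible trypsin-like subunit, had 340 counts in 42 cells. Psma8, the testis form of an alpha subunit, had 333 counts in 27 cells. Psmb11, known from the thymus, had 0 counts. Psmb8 and the regulatory subunit Psmd11 were not analysed here.

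The Mus allele held 46.3% of the pooled member counts (95% Clopper-Pearson interval 46 to 46.6), beside 42.9% for all autosomal genes (42.8 to 42.9). Intervals cover counting error only and take counts as independent. The reads carry no molecular identifiers and were amplified by PCR. The study's methods describe counts at SNP positions, by which a read over several SNPs can count more than once. Intervals, here and below, may thus be too narrow. Per cell, the Mus share of the members was 39.5 to 48.4% in cells with both X (median 45.7), 42.4 to 51.3% in cells with the Cast X (median 47.6) and 41.5 to 53.7% in cells with the Mus X (median 48). The 3 ranges overlapped.

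Shares of single members were far more spread than the pooled value. Of the 39 autosomal members with at least 200 counts, 5 had a Mus share under 35%, beside 27% of all 4422 such genes, and 5 had a share over 65%, beside 8.10% of all. The interquartile range of the members was 42.0 to 56.0% with a median of 50.4%, against 33.5 to 54.6% with a median of 45.9% for all genes. Limits of 5% and 95%, set after the values were seen, left 3 members below (4.00% of all genes) and 3 above (0.633%).

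**Figure D1:**
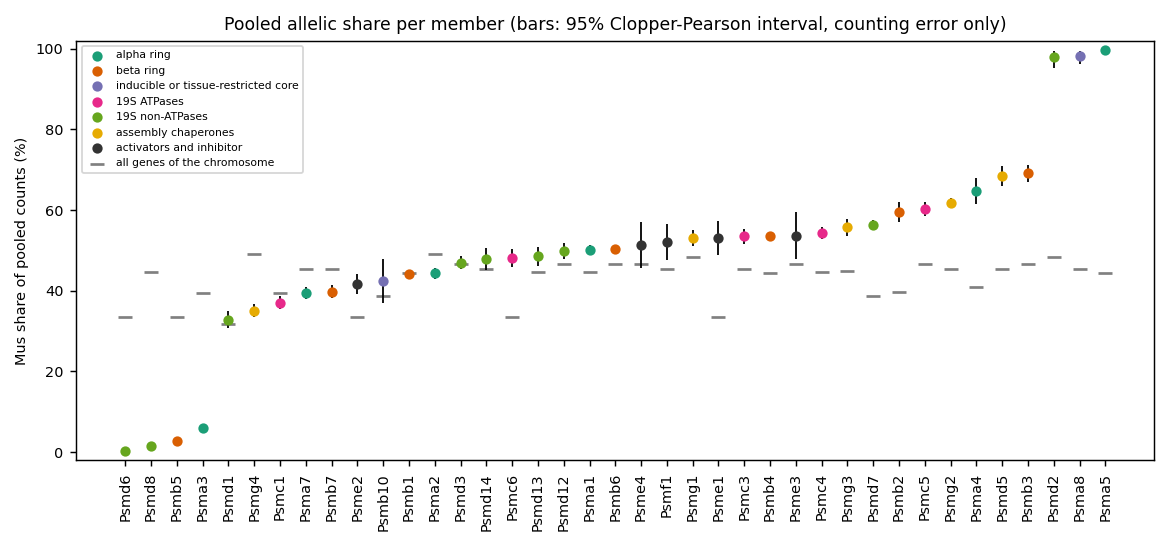
Pooled Mus share in percent (y) of the 39 autosomal members with at least 200 counts (x, ordered by share, coloured by role). Bars are 95% Clopper-Pearson intervals for counting error, and grey dashes give the share of all genes on the same chromosome. The members near 0 and 100% stand far from the shares of their chromosomes.

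The regulatory subunit Psmd6 had 0.260% Mus counts (0.0844 to 0.605) over 1924 counts, Psmd8 1.42% (0.713 to 2.54) over 772 and the catalytic subunit Psmb5 2.67% (2.26 to 3.12) over 5628. For Psma3 the share was 6.11% (5.44 to 6.84) over 4661 counts. At the other end were Psma5 with 99.8% (99.5 to 99.9) over 2090 counts, Psma8 with 98.2% (96.1 to 99.3) over 333 and Psmd2 with 98.0% (95.3 to 99.3) over 244. In single cells with at least 10 counts, the Mus share was 0 to 6.74% for Psmb5, 0 to 8.33% for Psmd8, 0 to 12.5% for Psmd6 and 0 to 18.4% for Psma3. It was 93.5 to 100% for Psma5, 75 to 100% for Psmd2 and 62.5 to 100% for Psma8. Psmb5 and Psmd6 lie on chromosome 14, where all genes together had 33.5% Mus counts, and Psme1 and Psme2 on the same chromosome had 53.1% (48.9 to 57.3) and 41.7% (39.3 to 44.1).

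Psmb5 has a processed pseudogene on chromosome 11, Psmb6 has 2 on chromosomes 1 and X, and Psma5 overlaps the counted antisense gene 1700010K24Rik. Whether reads of such copies or overlapping genes are among these counts was not tested.

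Psmd1 had 32.8% Mus counts (30.8 to 34.9), close to the 31.8% of all genes on its chromosome 1. Psmb3 (69.2%, 67.0 to 71.3) and Psmd5 (68.5%, 66 to 70.9) leaned to Mus, and Psmg4 lay at 35.1% (33.4 to 36.7). Both most-read members were near balance, Psmb1 with 44.2% (43.4 to 44.9) and Psmb6 with 50.4% (49.5 to 51.2).

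Next, the variation of each member over the 47 cells was split by its 2 alleles. Allele-specific variation, the part of the squared coefficient of variation by which the alleles differ, holds transcription in bursts of single alleles as well as counting and amplification error. Shared variation, the covariance of the alleles over the product of their means, holds what moves both alleles together. The 30 members averaging 5 or more counts per allele and cell had a median allele-specific variation of 0.221 and a median shared variation of 0.0381. For all 1946 genes passing this filter the medians were 0.687 and 0.113, but members were read more deeply, with a median of 24.9 counts for the lower allele against 10.5. With every count taken as an independent read, counting error alone would give 0.0372 for the median member and 0.0844 for the median gene. These are lower bounds where a read over several SNPs counts more than once.

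At matched levels the difference in allele-specific variation became smaller with depth. The genes were set into 4 levels by the mean counts of the lower allele, from 5 to 10, 10 to 20, 20 to 50 and 50 or more. With 5 to 10 counts, the median allele-specific variation was 0.805 in 5 members and 1.14 in 925 genes, and with 10 to 20 counts 0.341 in 7 members and 0.607 in 569 genes. With 20 to 50 counts, the median was 0.221 in 13 members and 0.302 in 336 genes, and with at least 50 counts it was 0.135 in 5 members and 0.138 in 116 genes. Shared variation, from the lowest to the highest level, was -0.0221, 0.0500, 0.0540 and 0.0171 in members, against 0.147, 0.118, 0.0715 and 0.0905 in all genes. The correlation of the alleles over cells (Pearson's r) had a median of 0.163 in members and 0.178 in all genes without matching. From the lowest to the highest of the 4 levels it was -0.0265, 0.171, 0.195 and 0.113 in members and 0.134, 0.194, 0.215 and 0.416 in all genes. These medians share cells, library and depth, and are descriptions.

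**Figure D2:**
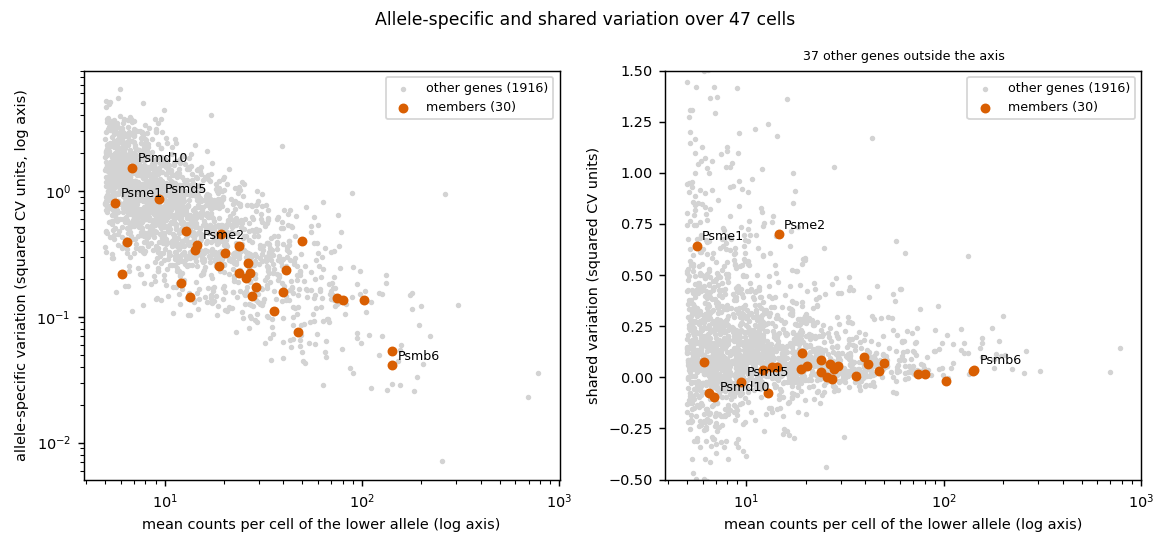
Allele-specific variation (left, y, log axis) and shared variation (right, y) of 30 members (orange) and the other genes passing the filter (grey) against the mean counts per cell of the lower allele (x, log axis). Psme1 and Psme2 lie at 0.644 and 0.701 of shared variation, and the other members lie between -0.0944 and 0.119.

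The lowest allele-specific variation was found for Psmb6 (0.0412), Psmb1 (0.0533) and Psma2 (0.0758). For Psmb6 the shared part was 0.0374, and the alleles correlated with r = 0.479. Allele-specific variation was highest for the chaperones Psmd10 (1.53) and Psmd5 (0.869) and for Psme1 (0.805). Psmd10 is X-linked, so that each single-X class lacks an allele, and in X-Mus X-Cast cells alone its value was 0.933. In these cells Psmd5 was at 0.537 and Psme1 at 1.68.

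Shared variation was highest for Psme2 (0.701, r = 0.662), Psme1 (0.644, r = 0.448) and the chaperone Psmg3 (0.119, r = 0.209). Psme2 was the only one of the 30 members in which the shared part exceeded the allele-specific part, which held for 188 of the 1946 genes. Without the single-X cells, over 23 cells, the shared variation was 0.0354 for Psme2, -0.126 for Psme1 and 0.0484 for Psmg3. Within classes, the alleles of Psme2 correlated with r = 0.0712, 0.798 and 0.308. For Psme1 these values were -0.0815, 0.175 and 0.625. The shared variation of both genes over all cells thus includes differences between the classes.

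**Figure D3:**
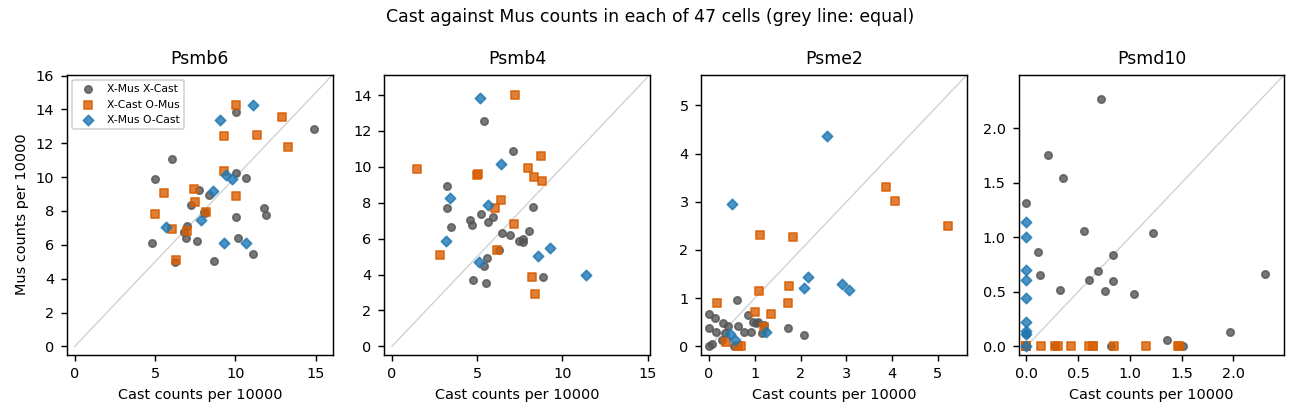
Mus (y) against Cast (x) counts per 10000 in each of the 47 cells for 4 members, coloured by class. Psmb6 lies around the line of equal counts (r = 0.479), Psmb4 spreads across it (r = -0.151), Psme2 extends along it in single-X cells (r = 0.662 over all cells), and Psmd10 lies on an axis in single-X cells.

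On and off states of single alleles were counted next. Over the 30 members, the median member had reads of only 1 allele in 1.06% of cells, against 17% for all 1946 genes. At matched levels of the lower allele these medians were 21.3 and 29.8% (5 to 10 counts), 2.13 and 14.9% (10 to 20), 0 and 2.13% (20 to 50) and 0 and 0% (50 or more). Psmf1, the inhibitor gene, was read from both alleles in 25 cells, from Cast only in 4, from Mus only in 4 and from neither in 14, where independent alleles with the same frequencies would give 6.89 cells with neither. Psme4 was read from both alleles in 18 cells, from Cast only in 6, from Mus only in 12 and from neither in 11, against 8.32. For Psme1 these numbers were 21, 11, 11 and 4, against 4.79. Among members in which each allele was absent from 5 to 42 cells, 5 of 7 had more cells with neither allele than independence gives, and so had 88.0% of 5496 genes. Without the X-linked Psmd10, of which each single-X class lacks an allele, these were 5 of 6 (83.3%). The part of depth differences between cells in such an excess was not tested.

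Single-allele reads also occurred where counts were high. For 23 autosomal members with a share of 35 to 65% and on average 20 counts or more in a cell, 11 of the 1012 values with at least 20 counts (1.09%) came from 1 allele only, from 5 members, beside 5.16% for 993 genes of this kind with a lower mean count (62.6 against 101). Psmg2, an assembly chaperone, gave 5 of these values, and its Mus share per cell ranged from 0 to 100% around a median of 58.8%. Psmc1 and Psmc6 gave 2 each, also with shares from 0 to 100%. The Mus shares of Psmb6 stayed within 33.1 to 66.3%.

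Members with a mean of at least 20 counts were also missing altogether from single cells. Psmg2 had 0 counts in the X-Cast O-Mus cell C05, against a median of 111 over cells, Psmd3 in the X-Cast O-Mus cell H05 (median 89), Psmg1 in the X-Cast O-Mus cell E06 (median 51) and Psmg3 in the X-Mus X-Cast cell E05 (median 42). Psmd5 was at 0 in 2 X-Mus X-Cast cells and Psme2 in 1. These cells had 112335 to 167849 counts in total. Loss of a transcript before amplification and an allele that is off cannot be told apart.

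Members moved together over cells only weakly. Over 435 pairs of the 30 members, Spearman's rho had a median of 0.0712 (range -0.422 to 0.602), against 0.0121 over all pairs of the 1946 genes, with 63.7% and 53.1% of pairs above 0. Scaled by size factors instead of totals, the medians were 0.0317 and 0.00743. Cast counts of one member against Mus counts of another gave 0.0515, beside 0.0131 for all genes. All pairs share the same 47 cells. The values for members and for all genes are not matched for depth, and members were read more deeply.

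The highest values were found for Psme1 with Psme2 (0.602), Psma4 with Psmb6 (0.528) and Psma1 with Psmd7 (0.448). Psme1 and Psme2 lie 5912 bases apart on chromosome 14 in opposite orientation, and their rho was 0.534, 0.389 and 0.617 within the classes. The lowest value was found for Psmd10 with Psme2 (-0.422), 2 genes whose levels differed between the classes in opposite directions, and was -0.333, 0.141 and -0.667 within the classes. With the sum of all other members, Psma2 (0.492), Psma4 (0.471) and Psma7 (0.415), all of the alpha ring, correlated most, and Psmg1 (-0.101), Psme2 (-0.0892) and Psmb4 (-0.0657) least.

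The summed Cast and the summed Mus counts of the autosomal members correlated over cells with a Spearman's rho of 0.487 (Pearson's r 0.635). The rho was 0.681, 0.711 and -0.0500 within the classes of 23, 15 and 9 cells, and 0.276 with size factors. Without cell C04, which had the highest member sum, it was 0.453. Over all cells the member sum correlated with the total counts at -0.121 and with the mitochondrial share at -0.163 (Pearson's r -0.0239 and -0.341). The mitochondrial share of cell C04, 9.09%, was the lowest of all cells, and its part in the member sum was not tested. Of 1432 other genes with an average of 20 counts or more, those most like the member sum were Eif3g (0.505), Pes1 (0.503), Hmmr (0.496), Brix1 (0.494) and Ddx39 (0.489), while the median gene was at 0.0516. Within classes Eif3g stayed at 0.515 to 0.568, and Pes1 ranged from 0.0333 to 0.726.

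Finally, the members were compared between the deposited classes. Both comparisons use the same X-Mus X-Cast cells and are therefore not independent. The summed level per 10000 was 147 to 212 (median 169), 146 to 259 (median 164) and 155 to 209 (median 174) in the 3 classes, and the ranges overlapped almost entirely. Pooled rates were 174 (95% Poisson interval 173 to 175), 172 (170 to 173) and 177 (175 to 179). Per 10000 autosomal counts, which leaves the mitochondrial and X-linked counts out, the medians were 227, 214 and 217. By plate position, the median level per 10000 counts was 159 to 180 over 8 rows and 162 to 179 over 6 columns.

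Single members scattered around no change. Of the 40 members with a mean of at least 5 counts, 20 were higher and 20 lower in X-Cast O-Mus cells, with a median log2 fold of class means of 0.01, and 19 were higher and 21 lower in X-Mus O-Cast cells, with a median of -0.06. The medians of all 4149 genes were 0.01 and 0.02. In X-Cast O-Mus cells 4 members were higher by at least 1.5 times (16.2% of all genes) and 2 were lower (14.6%). In X-Mus O-Cast cells 3 were higher (18.9%) and 4 lower (19.3%). Members passed this fold in 10.0% and 5.00% and in 7.50% and 10.0% of cases. These shares are not matched for depth, in which members and all genes differ, and nothing is read from their difference. By role, the ATPases had a median log2 fold of 0.17 and 0.18, the non-ATPases of -0.23 and -0.28, the alpha ring of -0.04 and 0.07, the beta ring of -0.06 and -0.09, and the chaperones of -0.07 and 0.04 in the 2 comparisons. For the 5 activator and inhibitor genes it was 0.49 and -0.43, and for the 2 inducible or tissue-restricted core genes that passed, Psmb10 and Psma8, 0.73 and 0.29. Signs were mixed within groups. Of 5 ATPases, 4 and 3 were higher in the 2 comparisons, and of 9 non-ATPases, 6 were lower in each. Other gene groups of such sizes were not examined.

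**Figure D4:**
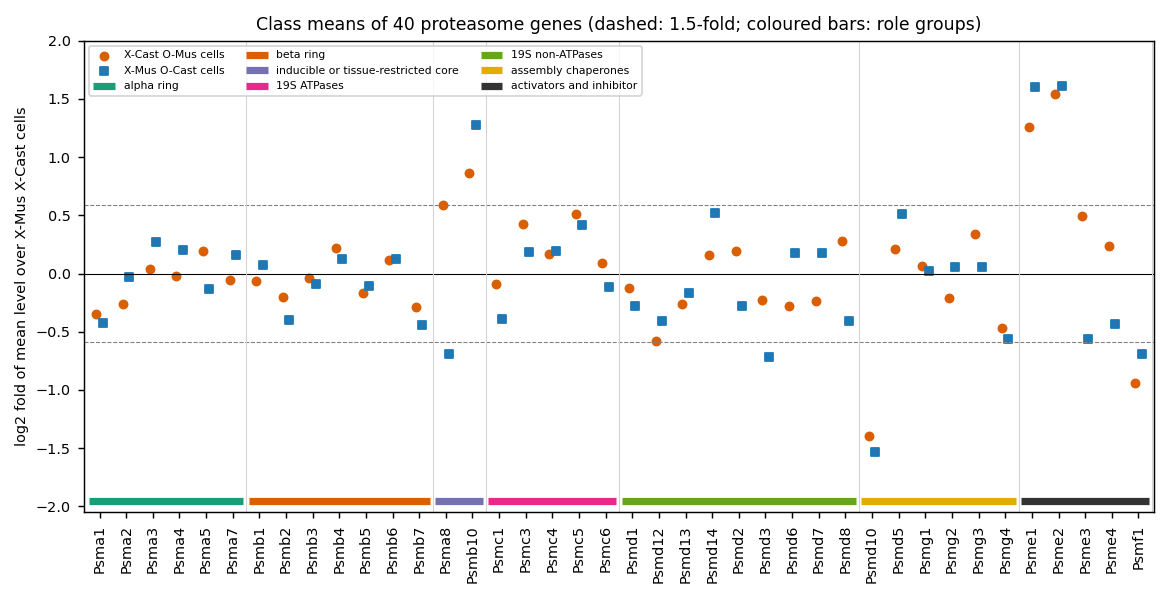
Log2 fold of the mean level of each of 40 members (x, ordered by role) over the X-Mus X-Cast class (y), with circles for X-Cast O-Mus and squares for X-Mus O-Cast. Dashed lines mark 1.5 times. Psme1, Psme2 and Psmb10 lie above and Psmd10 and Psmf1 below the lines in both classes.

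Of the 40 members, the activator genes Psme2 and Psme1 had the highest folds in both comparisons. Psme2 had 0 to 2.32 counts per 10000 in X-Mus X-Cast (median 1.05), 0.462 to 7.72 in X-Cast O-Mus (median 2.23) and 0.698 to 6.94 in X-Mus O-Cast cells (median 3.46). The highest cell with both X was exceeded by 7 of the 15 cells with the Cast X and by 6 of the 9 with the Mus X, while the lower cells of both classes overlapped with it. The class means differed by 2.91 and 3.06 times (log2 1.54 and 1.61), with a SD over cells of 0.617, 2.45 and 1.98 in the classes.

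Psme1 had 0 to 1.20 counts per 10000 in X-Mus X-Cast (median 0.343), 0.0924 to 2.39 in X-Cast O-Mus (median 1.02) and 0.112 to 4.36 in X-Mus O-Cast cells (median 0.986). Only 4 and 2 cells of the single-X classes exceeded all cells with both X, but 13 of 15 and 8 of 9 exceeded their median. The means differed by 2.40 and 3.03 times (log2 1.26 and 1.60). With 1 cell left out at a time, the log2 fold stayed within 1.10 to 1.40 and within 1.05 to 1.76.

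The medians of the pluripotency markers, of the fibroblast markers and of the mitochondrial share given above also differed between the classes, and their part in the values of Psme1, Psme2 and Psmb10 was not tested. Both alleles of the activator genes were higher. For Psme2, the Cast counts differed by a log2 fold of 1.39 and 1.39 in the 2 comparisons, and the Mus counts by 1.77 and 1.94. For Psme1, these values were 1.29 and 1.59 for Cast and 1.24 and 1.61 for Mus. Both genes are autosomal, and all genes of chromosome 14 together had medians of 246, 268 and 258 per 10000 in the 3 classes. Psme1 overlaps Emc9 on the opposite strand, and a retro-copy of Psme2, Psme2b, lies on chromosome 11.

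Psmb10 had 0 to 0.894 counts per 10000 in X-Mus X-Cast (median 0.281), 0.204 to 0.973 in X-Cast O-Mus (median 0.489) and 0 to 2.22 in X-Mus O-Cast cells (median 0.468). The ranges overlapped widely, and 14 of 15 and 6 of 9 cells lay above the X-Mus X-Cast median. The means differed by 1.82 and 2.42 times (log2 0.86 and 1.28), on 113, 137 and 90 counts. With 1 cell left out at a time, the log2 fold stayed within 0.78 to 0.99 and within 0.86 to 1.45. Without cell E04, the cell with the fewest counts, the second fold was 0.94. Log2 folds of medians over cells were 0.80 and 0.74. By allele, the log2 folds were 0.68 and 1.67 for Cast and 1.06 and 0.53 for Mus. All genes of its chromosome 8 had medians of 404, 403 and 468 per 10000, with ranges over cells of 369 to 486, 375 to 506 and 394 to 631.

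**Figure D5:**
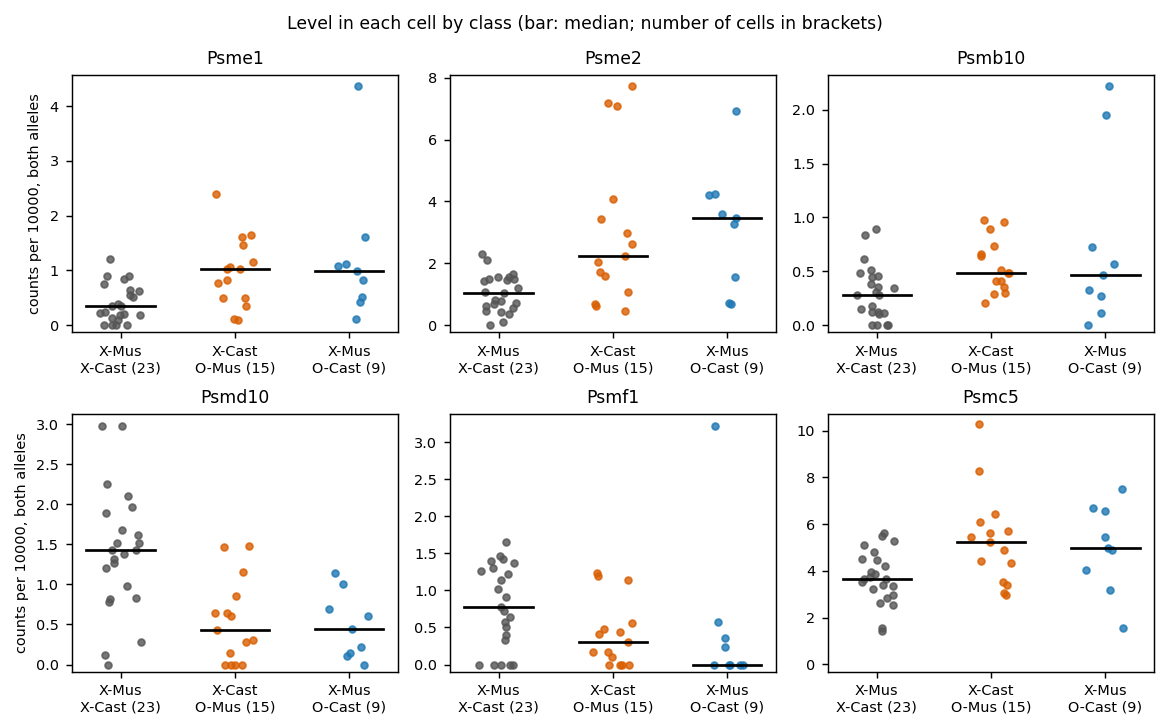
Counts per 10000 of both alleles (y) of 6 members in each cell, by class (x), with the class median as a bar. Psme1 and Psme2 are highest in part of the single-X cells, Psmd10 is highest in X-Mus X-Cast cells (median 1.42 against 0.435 and 0.441), and 1 cell carries most of the X-Mus O-Cast mean of Psmf1.

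Psmb9 had 43 counts in 3 of 23, 47 in 3 of 15 and 8 in 1 of 9 cells. Psma8 had pooled rates of 0.412 (0.350 to 0.482), 0.545 (0.458 to 0.645) and 0.283 (0.203 to 0.384) per 10000, with log2 folds of 0.59 and -0.69. It was at 0 in 8, 8 and 4 cells of the classes. The other activator genes Psme3 (0.49 and -0.56) and Psme4 (0.24 and -0.43) had log2 folds of opposite sign in the 2 comparisons.

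Psmd10, the chaperone also known as gankyrin, was the only X-linked member (chromosome X, 140948429 to 140956728). It had 0 to 2.98 counts per 10000 in X-Mus X-Cast (median 1.42), 0 to 1.47 in X-Cast O-Mus (median 0.435) and 0 to 1.14 in X-Mus O-Cast cells (median 0.441). The median of the cells with both X was exceeded by 2 of 15 and 0 of 9 cells. As the classes rest on X-linked allelic reads, the allele read in single-X cells is set by the grouping, and its 141 counts in X-Cast O-Mus cells were Cast and its 67 in X-Mus O-Cast cells Mus. The means were 0.380 and 0.346 times that of X-Mus X-Cast cells (log2 -1.40 and -1.53), beside medians of 207, 110 and 133 per 10000 for all X-linked genes together. Per retained allele, the log2 fold was -0.44 for Cast and -0.49 for Mus. In the X-Mus X-Cast cells, Psmd10 was read from both alleles in 17 cells, from Cast only in 3, from Mus only in 2 and from neither in 1.

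Psmf1 had a median of 0.775 counts per 10000 in X-Mus X-Cast (0 to 1.66) and of 0.303 in X-Cast O-Mus (0 to 1.24). For X-Mus O-Cast the median was 0, with a range of 0 to 3.22. The log2 folds were -0.94 and -0.69. The X-Mus O-Cast cell E01 alone held the value of 3.22, and without it the second fold was -2.43. Psmd12 was lower in both classes (log2 -0.58 and -0.40), with 0 of 15 cells with the Cast X above the X-Mus X-Cast median of 3.92. Psmd3 had log2 folds of -0.23 and -0.71, and 0 of 9 cells with the Mus X exceeded the X-Mus X-Cast median of 6.12. Psmc5 was higher in both (0.51 and 0.42), with 11 of 15 and 7 of 9 cells above that median of 3.66.

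The count of members past 1.5 times rested partly on 2 cells. Without cell C04, the X-Cast O-Mus cell with the highest member sum, 4 members were lower in place of 2, with Psmd12 (-0.59) and Psmg4 (-0.61) added. Without cell E04, the X-Mus O-Cast cell with the fewest counts, 5 members were higher in place of 3, with Psmd14 (0.59) and Psmd5 (0.60) added, and 3 were lower in place of 4, these being Psmd10, Psmd3 and Psmg4 (-0.77) without Psma8 and Psmf1. Psme1, Psme2 and Psmb10 were past the limit in both comparisons without either cell.

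Other genes of the ubiquitin and proteasome pathway were taken from a list of 32, of which 26 were in the table and 19 had a mean of at least 5 counts. Of these, 1 was higher by 1.5 times in X-Cast O-Mus cells (Nfe2l2, log2 0.70) and 1 lower (the X-linked ubiquitin-activating enzyme Uba1, -0.90), beside 16.2% and 14.6% of all genes. In X-Mus O-Cast cells 5 were lower, Ubqln1 (-1.49), Akirin2 (-1.15), Uba1 (-0.76), Nfe2l2 (-0.68) and Txnl1 (-0.59), beside 19.3% of all genes. Their median log2 folds were -0.04 and -0.15. Pomp, the chaperone that matures the core, had log2 folds of -0.26 and 0.16, and Sem1, a small subunit of the regulatory particle, of -0.02 and 0.11.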

How the data were processed

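Reads of single cells, captured on oligo-dT beads and sequenced from 1 end, were counted per gene and allele. The authors deposited raw counts of the Cast and Mus alleles, 2 columns per cell. The submitters' processing notes name STAR 2.5.3a, SAMtools and mm10. For allele-specific Smart-seq2 data, without naming a plate, the study's methods state masked SNPs and assignment of reads by SNPsplit. They also state counts retained at SNP positions and a minimum of 4 SNPs per gene. Each count was scaled to 10000 counts of its cell. Genes were placed with GENCODE M21 (13945 of 13947). The tools were scipy 1.17.1, pandas 2.3.3, numpy 2.4.6 and matplotlib 3.10.9 under Python 3.11.15. Classes were taken from the column names, as the labels name a single group. Variation was measured in genes averaging 5 counts or more per allele and cell, and folds in those averaging 5 or more per cell. Measures were tested on simulated data. Members, role groups and lists were chosen with earlier results of these data known. Genes with full values were named by rule: X-linked, inducible, and extreme members by counts, share, variation, fold and correlation. One gene of each of 2 lists of other genes is not reported here. Alternatives covered scaling, filters, depth and the cells and members used.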

Additional observations from a re-analysis of the deposited data

Results flagged for a closer look

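In the class of 9 X-Mus O-Cast cells, Dixon's ratio was computed for the 40 members with a mean of at least 5 counts, for the member sum and for the Mus share, 42 values in all. Its limit flags about 1 in 20 by chance only where values are normally distributed. Counts of single cells are skewed and hold zeros, and Psmf1 had reads in 4 of the 9 cells. Nothing is therefore read from the number of flags. A single cell stood apart for 5 members, all in counts per 10000. Psmf1 was at 3.22 in cell E01, against 0 to 0.571 in the other 8 cells. Psme1 was at 4.36 in cell B01 (others 0.112 to 1.61), and Psme3 at 0.960 in the same cell (others 0 to 0.467). Cell B01 had a mitochondrial share of 9.47%, the lowest of its class (median 18.4%), and its part in these values was not tested. Psmd5 was at 5.92 in cell C01 (others 0.848 to 2.83) and Psmb3 at 4.32 in cell E04 (others 1.18 to 2.68), the cell with the fewest counts. Without cell B01 the log2 fold of Psme1 over X-Mus X-Cast cells was 1.05 in place of 1.60.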

How the results depend on the processing

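No paired analysis was possible because the labels give 1 group and cell numbers pair nothing. Per autosomal counts, the median member sum was 218 in place of 169 per 10000. The mean of single-member Mus shares was 49.5%, against 46.3% pooled. In X-Mus X-Cast cells alone, median shared variation was 0.0128 in place of 0.0381. With size factors, the median pair correlation was 0.0317 in place of 0.0712. With a mean of at least 20 counts, 1 member was higher and 0 lower by 1.5 times in X-Cast O-Mus cells (in place of 4 and 2), and 1 was higher and 1 lower in X-Mus O-Cast cells (in place of 3 and 4). In X-Cast O-Mus cells, 4 were lower by medians over cells, 4 without cell C04 and 1 among autosomal members. In X-Mus O-Cast cells, 5 were higher without cell E04. The cause of these shifts was not tested. Median log2 folds stayed between -0.14 and 0.07, with signs that changed between settings. Counts of members past 1.5 times were planned. Other settings for these counts and for folds of single genes were added after seeing the data. So were settings without C04 and the autosomal scaling of variation, pairs and folds. Psmb9, Psmd4 and Psma6 were read in 7, 8 and 1 cells, too few to compare classes at this depth.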

Other observations

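Genes of antigen presentation and the interferon response were examined after the values of Psme1, Psme2 and Psmb10 had been seen and are given here with log2 folds of class means in cells with the Cast X and then in cells with the Mus X over cells with both X. Ifitm3, an antiviral membrane protein, was read in all 47 cells with medians of 15.1, 29.8 and 24 counts per 10000 in the classes with both X, the Cast X and the Mus X (log2 0.65 and 0.85). Bst2, which tethers virions, had medians of 0.807, 1.14 and 2.61 (1.25 and 1.46). B2m, the light chain of class I molecules, had medians of 0, 0 and 0.335 (0.92 and 1.51), and the transcription factor Irf1 had medians of 0.657, 1.07 and 0.294 (0.10 and -0.75). A further 5 genes averaged under 5 counts per cell and are given no fold. H2-K1 had 154 counts in 12 cells, H2-D1 123 in 14, Isg15 103 in 5, Tap1 21 in 2 and Nlrc5 0.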
